A study of Mus musculus with 12 samples.

Results

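The suppressor of cytokine signalling (SOCS) family comprises 8 genes in the mouse, Cish and Socs1 to Socs7, and was followed in RNA sequencing libraries of splenic B cells. Members were the rows of the deposited transcript table whose gene name was one of these symbols, which gave 23 of 63759 transcripts, summed to 8 of 32699 genes. On mm10 (GENCODE M21) Cish lies at chr9:107296026-107302784, Socs1 at chr16:10782240-10785536, Socs2 at chr10:95385362-95417180, Socs3 at chr11:117966079-117970047 and Socs5 at chr17:87107679-87137839. All 8 were among the 19125 genes that passed the filter on low counts. The 12 libraries formed 4 groups of 3. These were Chd4 knockout (KO) cells after 48 hr with lipopolysaccharide (LPS, 10 µg/ml) and interleukin 4 (IL-4, 25 ng/ml), replicates 10 to 12, and wild-type (WT) cells under the same stimulation, replicates 7 to 9. The other groups were unstimulated KO cells, replicates 4 to 6, and unstimulated WT cells, replicates 1 to 3, both called 0 hr. The deleted part of Chd4, the promoter driving any recombinase, the strain and the age of the mice are not given in the sources used here, and neither is any pooling of animals. Nothing in the labels ties a replicate to an animal, so p-values cover the spread among these libraries alone, and that spread may be technical.

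SOCS proteins are negative-feedback inhibitors of cytokine signalling. A cytokine such as IL-4 activates Janus kinases (JAKs) bound to its receptor, these phosphorylate STAT transcription factors, and STATs switch on target genes that include several SOCS genes. Each SOCS protein carries an SH2 domain that binds phosphotyrosine and a SOCS box that recruits elongins B and C and cullin 5, a ubiquitin ligase. SOCS1 and SOCS3 also block JAK catalysis directly through a kinase inhibitory region. CHD4 is the ATP-dependent motor of a nucleosome remodelling and deacetylase complex, and LPS acts on B cells through Toll-like receptor 4.

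RefSeq promoter windows on GRCm38.p6 were at hand for 4 of the 8 members, Cish, Socs1, Socs3 and Socs4. Those of Cish, Socs1 and Socs3 are shown because these genes were among the most abundant members after stimulation and their windows hold letters of classical STAT or interferon response elements. Each window runs 5′ to 3′ from 250 bases before to 30 bases after the annotated start, at chr9:107296409-107296688 on the plus strand for Cish, chr16:10785507-10785786 on the minus strand for Socs1 and chr11:117969337-117969616 on the minus strand for Socs3. Capitals mark matches to TTCNNNGAA, the spacing bound by most STATs, or to GAAANNGAAA, a form of the interferon-stimulated response element. N is any base and both strands were searched.
Cish: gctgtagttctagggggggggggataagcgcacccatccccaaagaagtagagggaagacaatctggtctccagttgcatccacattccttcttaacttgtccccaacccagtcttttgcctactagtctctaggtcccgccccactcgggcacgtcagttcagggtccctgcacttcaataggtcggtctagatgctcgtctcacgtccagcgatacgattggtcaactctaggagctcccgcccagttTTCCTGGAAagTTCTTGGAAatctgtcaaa
Socs1: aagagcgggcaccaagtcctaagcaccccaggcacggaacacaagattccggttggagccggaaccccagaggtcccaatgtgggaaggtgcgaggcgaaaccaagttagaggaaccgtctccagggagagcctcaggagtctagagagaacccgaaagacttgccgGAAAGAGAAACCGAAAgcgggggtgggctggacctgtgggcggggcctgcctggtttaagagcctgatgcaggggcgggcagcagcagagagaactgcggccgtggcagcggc
Socs3: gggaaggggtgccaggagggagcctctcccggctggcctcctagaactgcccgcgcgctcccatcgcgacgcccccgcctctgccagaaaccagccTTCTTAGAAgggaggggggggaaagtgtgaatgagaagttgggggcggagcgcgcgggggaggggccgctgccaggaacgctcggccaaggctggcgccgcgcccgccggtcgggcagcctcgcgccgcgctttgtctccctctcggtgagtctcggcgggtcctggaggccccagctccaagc
The Cish window held 2 matches to TTCNNNGAA that do not overlap, TTCCTGGAA at bases 1 to 9 and TTCTTGGAA at bases 12 to 20 counted from the start. The Socs3 window held 1, TTCTTAGAA, from base -154 to base -146. The Socs1 window held 2 matches to GAAANNGAAA that share letters, from -83 to -74 and from -77 to -68. The Socs4 window matched neither pattern, and TTCNNNNGAA, the wider spacing preferred by STAT6, was found in none of the 4 windows. Of 32851 windows of the same length, 7.83% held TTCNNNGAA, 0.408% held it at least 2 times, 6.5% held TTCNNNNGAA and 3.28% held GAAANNGAAA. These matches describe letters only.

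Facts of the whole series bear on every comparison. Estimated counts per library totalled 38956484 to 53189198. The targeted gene checked the labels at 48 hr only: Chd4 stood at 51.3, 38.8 and 74.7 CPM, the count scaled to a common library size, in KO 48 hr libraries 10, 11 and 12, against 102, 96.1 and 123 CPM in WT 48 hr libraries. At 0 hr it was 100, 70.6 and 92.8 CPM in the libraries labelled KO, against 99.4, 68.1 and 92.8 CPM in WT libraries, so the groups overlapped there. KO 0 hr replicate 6 and KO 48 hr replicate 12 stood nearer to WT than the other KO libraries did. Their scores on principal component 2 (6.53% of variance) were 9.74 and 6.65, against -23.9 or lower in the other KO libraries and 15.3 to 37.4 in WT libraries. Genotype was also aligned with sex-linked RNA. Xist was at 0.856 to 1.59 CPM in KO libraries, replicates 6 and 12 included, and at 75.4 to 293 CPM in WT libraries. The Y-linked gene Ddx3y was at 91.8 to 139 CPM in KO libraries and at 20.8 to 28.3 CPM in WT libraries. WT libraries thus held both Xist and Y-linked RNA, and genotype and sex cannot be told apart. B cell markers were abundant throughout. The 8 listed ones summed to 5442 to 6582 CPM in KO 48 hr, 5851 to 6417 CPM in WT 48 hr, 7765 to 10394 CPM in KO 0 hr and 7336 to 9141 CPM in WT 0 hr libraries, and none was at 0. In bulk RNA, fewer cells of a type and less RNA per cell cannot be told apart.

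Cish, the founding member of the family, is induced by STAT5 and dampens interleukin 2 and related receptor signals. It had 86.1, 50.1 and 164 CPM in KO 48 hr libraries, against 169, 163 and 170 CPM in WT 48 hr libraries. Resting cells had 1.54, 1.36 and 0.662 CPM in KO, against 0.930, 1.07 and 0.510 CPM in WT libraries. Stimulated and resting groups were far apart, and KO 48 hr replicate 12 lay within the WT 48 hr range while replicates 10 and 11 lay under it. The 0 hr levels rested on only 45 to 88 reads in KO libraries and 29 to 54 in WT libraries.

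Socs2, which restrains growth hormone signalling and is itself induced by STAT5, had 32.4, 19.9 and 64.2 CPM in KO 48 hr libraries, against 77.3, 79.4 and 73.0 CPM in WT 48 hr libraries. At 0 hr it had 4.88, 4.17 and 4.00 CPM in KO libraries, against 5.86, 4.07 and 5.17 CPM in WT libraries. The genotypes did not overlap at 48 hr, where replicate 12 was again the KO library nearest to WT, and they overlapped at 0 hr.

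Socs1, the main brake on interferon gamma and also on IL-4 signalling, had 83.2, 73.8 and 145 CPM in KO 48 hr libraries, against 157, 131 and 146 CPM in WT 48 hr libraries. At 0 hr it had 11.4, 12.8 and 7.47 CPM in KO libraries, against 15.7, 14.3 and 16.9 CPM in WT libraries. KO replicate 12 fell inside the WT range at 48 hr, and all 3 KO libraries were under all 3 WT libraries at 0 hr.

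Socs3, which binds the shared interleukin 6 receptor subunit gp130 and limits STAT3, had 106, 63.7 and 172 CPM in KO 48 hr libraries, against 166, 156 and 176 CPM in WT 48 hr libraries. Its 0 hr levels were 14.2, 21.8 and 20.2 CPM in KO libraries, against 40.2, 41.3 and 47.2 CPM in WT libraries. Here KO replicate 6, which lay nearer to WT on that component, was as low as the other KO libraries.

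Socs5, reported to restrain IL-4 and epidermal growth factor receptors, ran the other way over time. It had 5.71, 5.91 and 3.29 CPM in KO 48 hr libraries, against 2.11, 3.24 and 2.66 CPM in WT 48 hr libraries. Resting cells had 37.5, 38.2 and 35.6 CPM in KO, against 30.7, 31.5 and 26.6 CPM in WT libraries. KO libraries were above WT libraries without overlap at both times, though replicate 12 passed the highest WT 48 hr library only narrowly.

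Socs4, the closest relative of Socs5, had 22.1, 23.4 and 19.5 CPM in KO 48 hr libraries, against 19.7, 20.3 and 22.6 CPM in WT 48 hr libraries. At 0 hr it had 11.8, 10.1 and 13.5 CPM in KO libraries, against 12.0, 10.7 and 10.5 CPM in WT libraries. The genotypes overlapped at both times.

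Socs6 and Socs7 form the branch linked to insulin receptor substrates and receptor tyrosine kinases. Socs6 had 33.7, 33.5 and 36.1 CPM in KO 48 hr libraries, 36.5, 26.9 and 34.3 CPM in WT 48 hr libraries, 20.0, 25.3 and 21.6 CPM in KO 0 hr libraries, and 19.6, 26.2 and 26.7 CPM in WT 0 hr libraries. Socs7 had 5.71, 4.30 and 5.00 CPM in KO 48 hr libraries, 4.04, 4.29 and 3.63 CPM in WT 48 hr libraries, 11.2, 6.55 and 7.70 CPM in KO 0 hr libraries, and 7.70, 4.53 and 6.24 CPM in WT 0 hr libraries. The genotypes overlapped in both genes, except for Socs7 at 48 hr, where the lowest KO library lay just above the highest WT library.

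**Figure D1:**
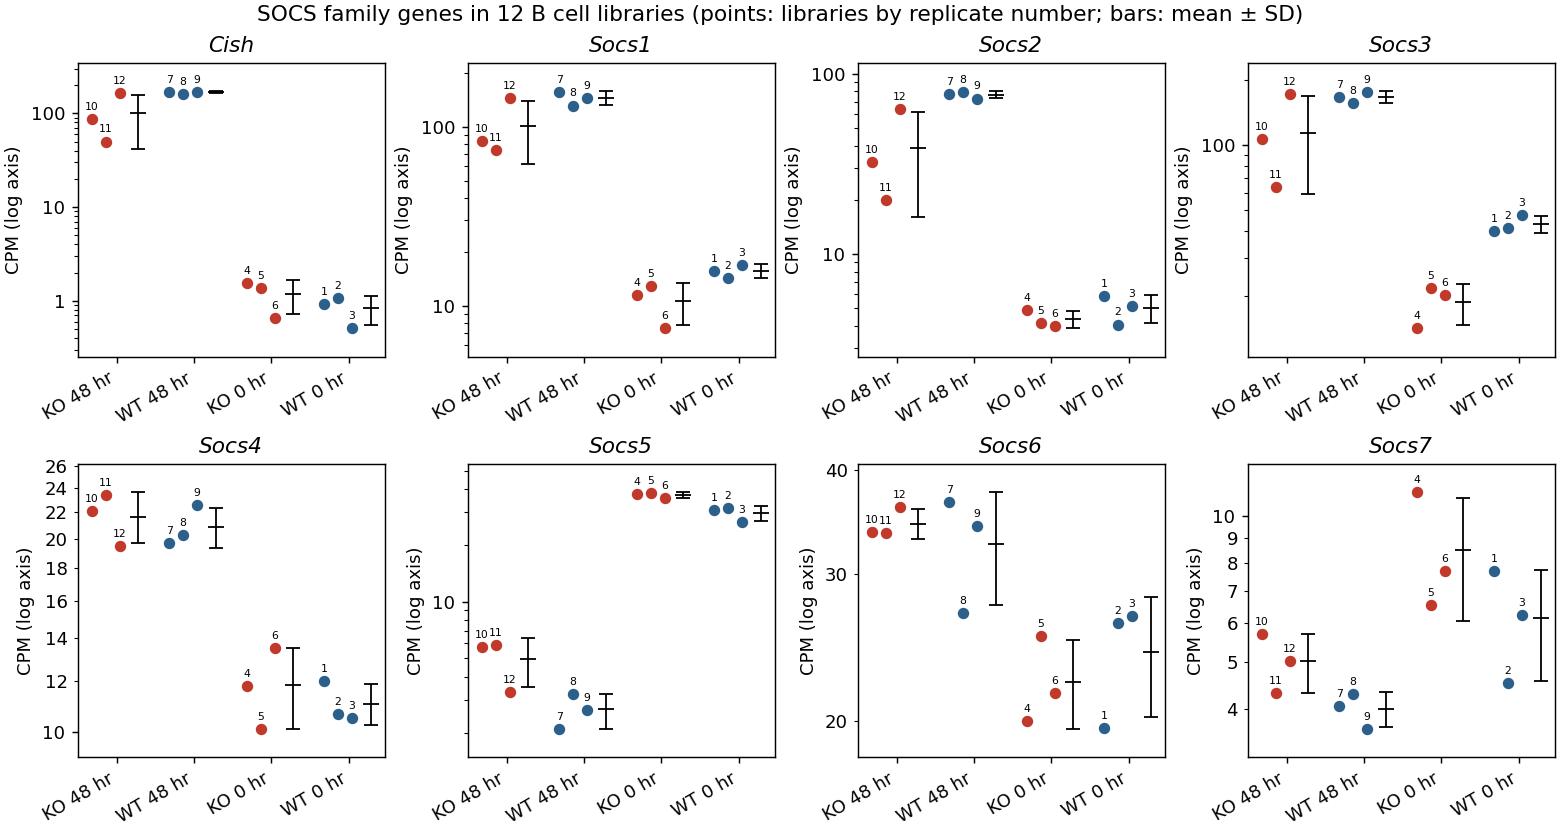
CPM on a log axis of the 8 SOCS genes in each of 12 libraries (points, numbered by replicate), with mean ± SD of each group of 3 beside them, KO in red and WT in blue. Cish, Socs1, Socs2 and Socs3 are high and Socs5 is low at 48 hr, and KO replicate 12 sits with or nearest to WT in Cish, Socs1, Socs2, Socs3 and Socs5.

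Levels were compared between genes per kilobase of the longest coding transcript in GENCODE M21 on mm10. At 48 hr the order by mean level was the same in both genotypes. It ran Socs3 (44.6 CPM per kb in KO, 65.1 in WT), Cish (35.05 and 58.7), Socs1 (34.6 and 49.7), Socs2 (17.5 and 34.5), Socs6 (5.70 and 5.40), Socs4 (3.15 and 3.03), Socs5 (1.07 and 0.575) and Socs7 (0.714 and 0.569). In KO 48 hr libraries the ranges of Socs3, Cish, Socs1 and Socs2 overlapped with each neighbour in that order. In WT 48 hr libraries Socs3, Cish, Socs1 and Socs2 were separated from each other, and Socs5 and Socs7 overlapped.

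In resting cells the family was led by Socs5 (7.98 CPM per kb) and Socs3 (7.34) in KO libraries, whose ranges overlapped. In WT libraries Socs3 (16.8) led without overlap, followed by Socs5 (6.37) and Socs1 (5.37), which overlapped. Cish was the lowest member at 0 hr, at 0.416 CPM per kb in KO and 0.293 in WT libraries. Summed over the 8 genes, the stimulated level was 126, 87.7 and 214 CPM per kb in KO libraries, against 223, 208 and 222 in WT libraries. The resting sum was 26.9, 30.1 and 26.8 CPM per kb in KO libraries, against 36.8, 36.6 and 39.4 in WT libraries. The KO 0 hr sums were all under the WT 0 hr sums, while the KO 48 hr sums reached into the WT range through replicate 12.

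**Figure D2:**
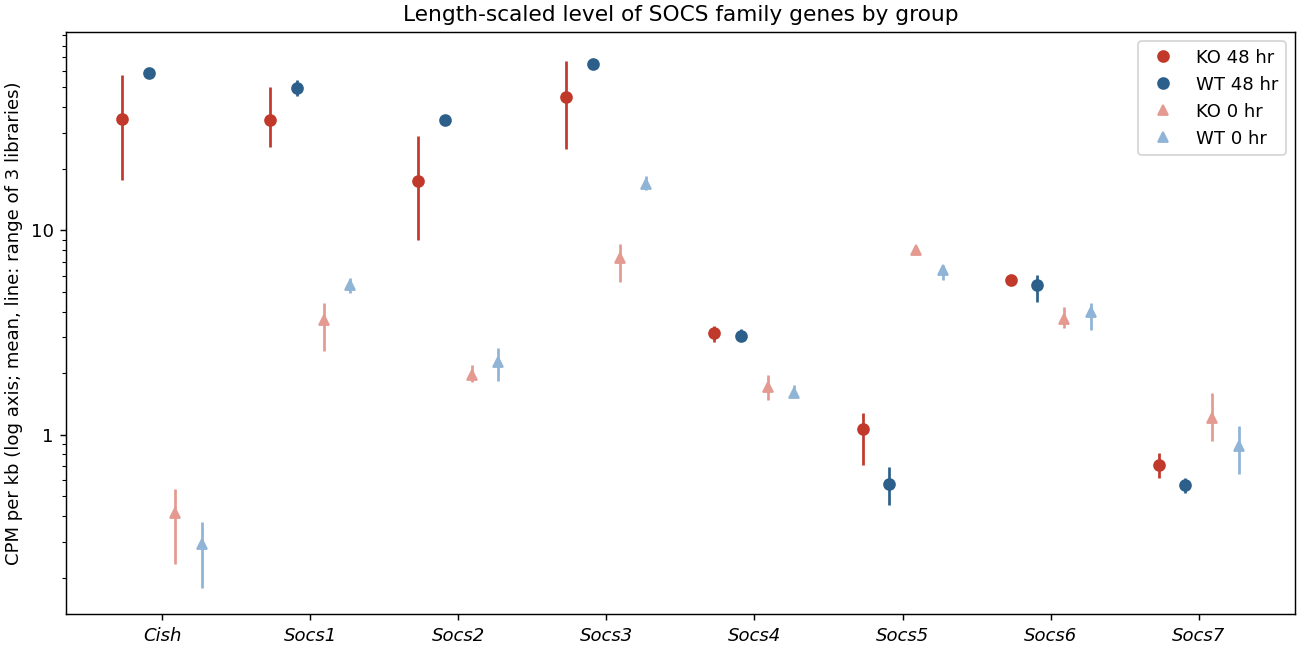
Mean CPM per kilobase on a log axis for each SOCS gene and group, with the range of 3 libraries as a line. Cish holds the second place at 48 hr (35.05 in KO, 58.7 in WT) and the lowest at 0 hr (0.416 in KO, 0.293 in WT), and Socs5 leads the family only in KO 0 hr.

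The comparison of stimulated with resting cells asked how the family responds to LPS and IL-4. All 8 genes changed in both genotypes, 6 of them higher and 2 lower at 48 hr. Over all genes tested, 70.7% were called at an edgeR adjusted p below 0.05 in KO and 73.9% in WT, so a call is itself common here. In each genotype 33% of genes were called higher, and 37.7% were called lower in KO and 40.9% in WT. The members' median log2 fold change was 1.74 in KO and 1.43 in WT, beside medians over all genes of -0.30 in KO and -0.39 in WT. None of the 8 overlapped between times in either genotype, which was also true of 72.5% of all genes in KO and 79.8% in WT.

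Cish changed most. Its log2 fold change was 6.41 (SE 0.44, 95% interval 5.46 to 7.37) in KO and 7.65 (SE 0.47, 6.64 to 8.67) in WT, an 85.2-fold and a 201-fold rise (edgeR adjusted p = 1.64e-08 and 4.84e-09). Socs2 rose by 3.16 (SE 0.33) on the log2 scale in KO and by 3.93 (SE 0.34) in WT, and Socs1 by 3.26 (SE 0.25) and 3.21 (SE 0.25). Socs3 rose by 2.60 (SE 0.28) in KO and by 1.95 (SE 0.27) in WT, and its largest edgeR adjusted p was 1.92e-05. These 4 are the members best known as rapid STAT-induced feedback genes.

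Socs4 rose less, with log2 fold changes of 0.88 (SE 0.15) in KO and 0.92 (SE 0.15) in WT. Socs6 rose by 0.63 (SE 0.15, edgeR adjusted p = 0.00252) in KO and by 0.43 (SE 0.15, adjusted p = 0.0216) in WT. Socs5 fell by 2.90 (SE 0.21) in KO and by 3.47 (SE 0.22) in WT, more than Socs7, the other member that fell. Socs7 fell by 0.76 (SE 0.25, adjusted p = 0.0149) in KO and by 0.63 (SE 0.25, adjusted p = 0.037) in WT. The smaller changes were less firm. The WT call of Socs6 was lost without replicate 1, 7 or 9 (adjusted p = 0.101, 0.0942 and 0.0576), and at a filter of at least 1 CPM in 3 libraries, where it stood at 0.28 (0.118). The Socs7 call was lost in KO without replicate 4 (0.0903), and in WT without replicate 1, 3, 7, 8 or 9 (0.177, 0.0797, 0.0766, 0.0541 and 0.114) and under DESeq2 (0.0563), limma-voom (0.0559) and RLE scaling (0.0737).

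With upper-quartile scaling Socs4 and Socs6 no longer passed, and Socs6 changed sign. That scaling moved the median of all genes over time by -0.63 (log2) in KO and by -0.67 in WT. Relative to the median gene, Socs6 was at 0.93 (log2) in KO under both scalings, and at 0.82 in WT under both. Markers of other cells also moved with time. In KO the 9 monocyte and macrophage genes summed to 20.2 to 40.9 CPM at 48 hr, against 153 to 421 CPM at 0 hr. In WT they summed to 16.9 to 19.6 CPM at 48 hr, against 143 to 283 CPM at 0 hr. All 9, such as Csf1r, fell in both genotypes, and so did 6 of 6 tested neutrophil and 5 of 5 platelet genes. Of all genes 37.7% were called lower in KO and 40.9% in WT. Falls were not confined to markers of other cells. Of the 8 B cell markers 5 were called lower and 1 higher in each genotype. Of the 9 T cell markers 6 were lower and 1 higher in KO, and 5 and 1 in WT. The part of other cells in the lower Socs5 and Socs7 levels was not tested.

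**Figure D3:**
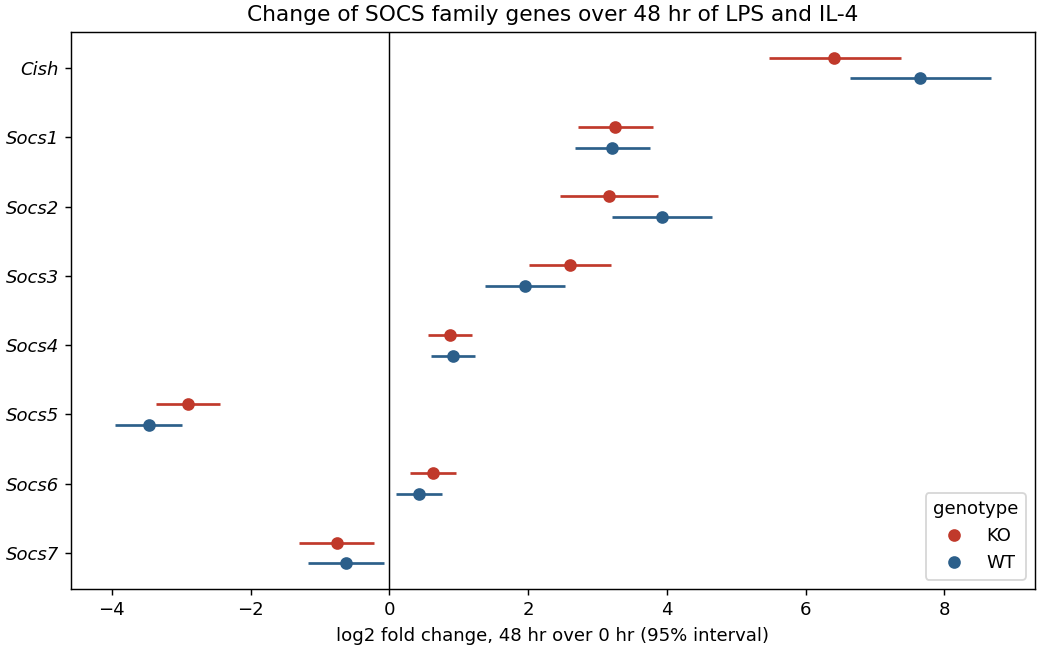
Log2 fold change of each SOCS gene at 48 hr over 0 hr in KO (red) and WT (blue), with 95% intervals. Cish lies farthest to the right (6.41 in KO, 7.65 in WT) and Socs5 farthest to the left (-2.90 and -3.47).

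The comparison of KO with WT cells at 48 hr asked whether the induced level depends on CHD4. With all libraries 0 of 8 members passed by edgeR. An unadjusted p below 0.05 was found for 4, a count with no share of all genes to set it against. Of all genes 2.02% were called, 1.47% higher and 0.544% lower. Limma-voom called 0 members, and DESeq2 called Socs2 lower and Socs5 higher (adjusted p = 0.0193 and 0.00692) among 1060 genes it called, 585 higher and 475 lower. The CPM of 3 members did not overlap (Socs2, Socs5 and Socs7), as for 20.2% of all genes. Socs2 averaged 38.8 ± 22.8 CPM in KO and 76.6 ± 3.28 CPM in WT (SD, n = 3 each). The difference was -0.98 on the log2 scale (SE 0.30, 95% interval -1.62 to -0.34, edgeR adjusted p = 0.122). Cish averaged 99.9 ± 58.0 CPM in KO and 167 ± 3.94 CPM in WT, a difference of -0.74 (SE 0.33, -1.46 to -0.02, adjusted p = 0.327).

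Socs1 averaged 101 ± 38.7 CPM in KO and 145 ± 12.8 CPM in WT, with a log2 fold change of -0.52 (SE 0.23, -1.02 to -0.03, adjusted p = 0.309). Socs3 averaged 114 ± 54.5 CPM in KO and 166 ± 9.94 CPM in WT, with -0.54 (SE 0.26, -1.10 to 0.02, adjusted p = 0.363). Socs5 averaged 4.97 ± 1.46 CPM in KO and 2.67 ± 0.565 CPM in WT, with 0.90 (SE 0.22, 0.43 to 1.37, adjusted p = 0.0522), just outside the threshold. For Cish the SD was 58.0 CPM among KO and 3.94 CPM among WT libraries. Socs4, Socs6 and Socs7 had log2 fold changes of 0.06, 0.08 and 0.33, with intervals of -0.25 to 0.37, -0.25 to 0.41 and -0.22 to 0.87.

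**Figure D4:**
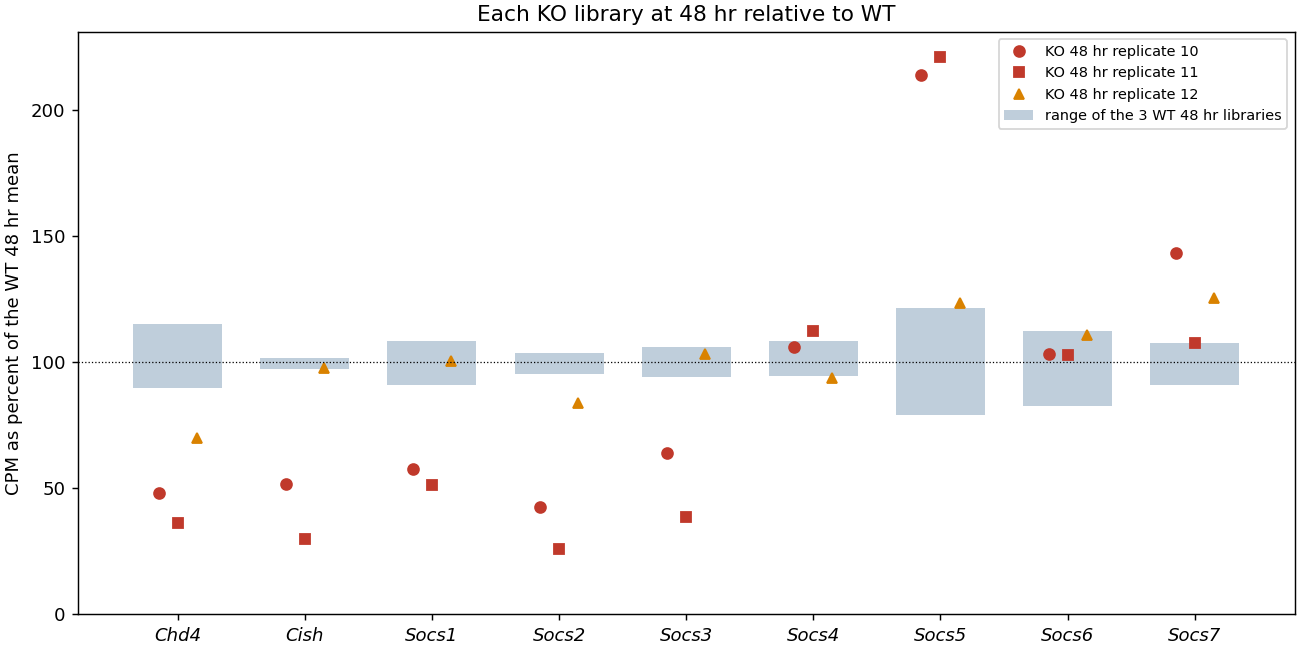
CPM of Chd4 and the 8 SOCS genes in each KO 48 hr library as percent of the WT 48 hr mean, with the range of the 3 WT libraries as a band. Replicates 10 and 11 lie at 25.9% to 63.9% for Cish, Socs1, Socs2 and Socs3, while replicate 12 lies at 83.8% to 103%.

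Replicate 12 was the highest KO library for Cish, Socs1, Socs2 and Socs3 and the lowest for Socs5. As percent of the WT mean, KO replicates 10, 11 and 12 held 51.4, 29.9 and 97.7% of Cish, 42.4, 25.9 and 83.8% of Socs2, 57.5, 51.0 and 100% of Socs1, and 63.9, 38.3 and 103% of Socs3. For Socs5 they held 214, 221 and 123%. The other 3 members did not share that order, with 106, 112 and 93.6% of Socs4, 103, 103 and 111% of Socs6 and 143, 108 and 125% of Socs7. Chd4 itself stood at 47.9, 36.2 and 69.8%, and its part in the SOCS levels was not tested.

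Without replicate 12, 5 of 8 members passed. Socs2 was lower in KO with a log2 fold change of -1.55 (SE 0.21, -2.00 to -1.10, edgeR adjusted p = 0.000996). Cish followed with -1.30 (SE 0.28, adjusted p = 0.0176), Socs3 with -0.97 (SE 0.21, 0.018) and Socs1 with -0.88 (SE 0.19, 0.0158). Socs5 was higher with 1.12 (SE 0.18, 0.00287). Of all genes 5.47% were then called, 3.65% higher and 1.82% lower. That library was singled out with the members' values known, so this fit describes replicates 10 and 11 and is no independent support. In the fits without each of the other 11 libraries, 0 members passed at 48 hr. The same 5 passed when KO 0 hr replicate 6 was left out as well, with adjusted p from 0.000772 to 0.0168, against 6.91% of genes called (4.54% higher and 2.37% lower).

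**Figure D5:**
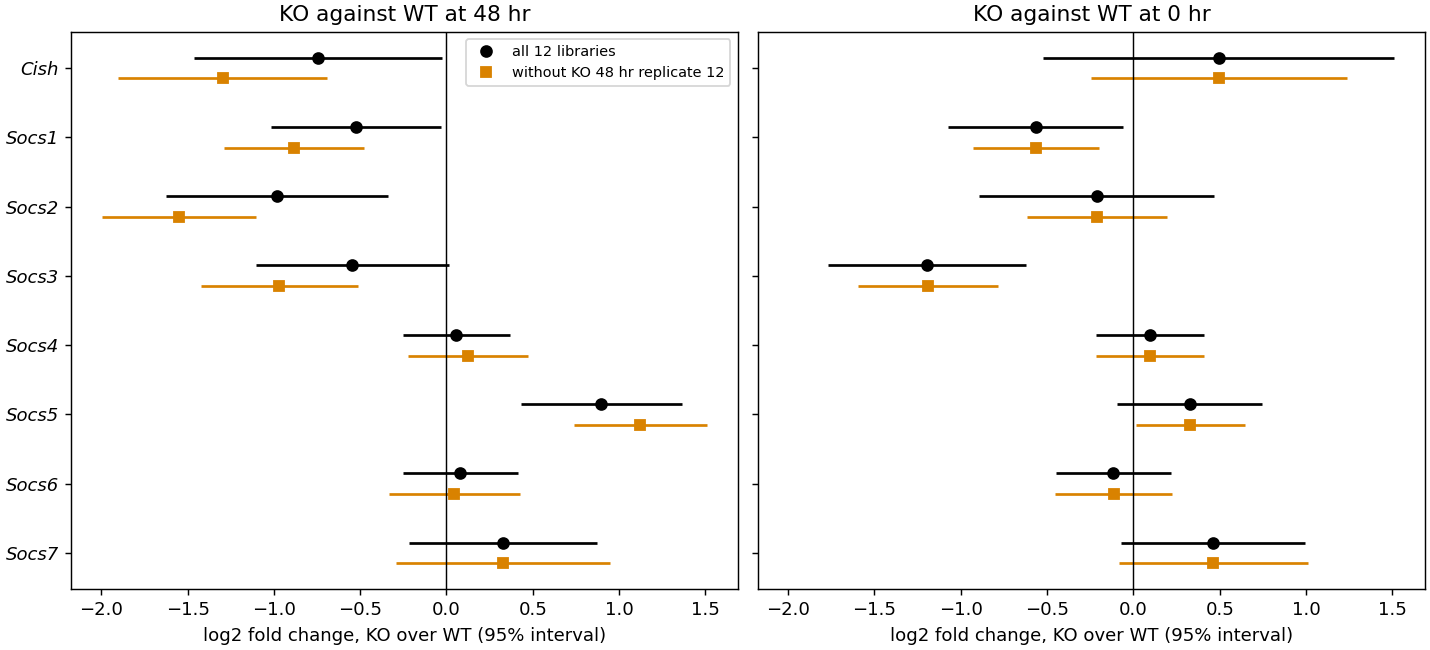
Log2 fold change of KO over WT with 95% intervals for each SOCS gene at 48 hr (left) and 0 hr (right), with all 12 libraries (black) and without KO 48 hr replicate 12 (orange). Without that library the 48 hr differences of Cish, Socs1, Socs2 and Socs3 shift from -0.74, -0.52, -0.98 and -0.54 to -1.30, -0.88, -1.55 and -0.97.

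Other measures moved with the same libraries. The 9 T cell markers, all measured and none at 0 throughout a group, summed to 120, 119 and 51.5 CPM in KO 48 hr libraries. The sums were 46.3, 48.1 and 50.9 CPM in WT 48 hr libraries, so replicate 12 was at the WT level there too. Their median log2 fold change of KO over WT was only 0.09, and 0 of 9 passed by edgeR, beside 2.02% of all genes. The higher sums were therefore not a rise shared by all 9 genes. The 7 natural killer cell markers summed to 8.82, 11.9 and 3.55 CPM in KO, against 3.48, 4.78 and 3.86 CPM in WT, with Klra8 at 0 in all WT 48 hr libraries. The 6 plasma cell markers summed to 769 to 985 CPM in KO and 651 to 665 CPM in WT, and replicate 12 had the highest sum. Their part in the SOCS differences was not tested.

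At 0 hr the genotype comparison asked whether resting levels differed. Again 0 of 8 members passed by edgeR, with 2 at an unadjusted p below 0.05, for which no share of all genes is given. Of all genes 1.11% were called, 0.68% higher and 0.429% lower. Limma-voom called 0 members and DESeq2 called 1, Socs3, among 650 genes. Socs1, Socs3 and Socs5 did not overlap between genotypes, as for 14.9% of all genes. Socs3 averaged 18.7 ± 3.98 CPM in libraries labelled KO and 42.9 ± 3.78 CPM in WT libraries (SD, n = 3 each). KO over WT came to -1.19 on the log2 scale (SE 0.27, 95% interval -1.77 to -0.62), with an edgeR adjusted p of 0.050029, just above the threshold of 0.05. The 3 KO libraries held 33.2, 50.8 and 47.1% of the WT mean. Socs3 passed in 9 of 23 alternatives, with adjusted p from 0.000693 to 0.225 and a log2 fold change of -1.31 to -1.03. Among them were the fit of the 0 hr libraries alone (0.0407) and those without KO 48 hr replicate 11 (0.0112) or 12 (0.0072), the last against 1.46% of genes called (0.922% higher and 0.542% lower).

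Socs1 averaged 10.6 ± 2.76 CPM in KO and 15.6 ± 1.34 CPM in WT at 0 hr, which differed by -0.57 in log2 (SE 0.24, -1.08 to -0.06, edgeR adjusted p = 0.386). Socs5 averaged 37.1 ± 1.37 CPM in KO and 29.6 ± 2.66 CPM in WT, with 0.33 (SE 0.20, -0.10 to 0.75, adjusted p = 0.643). Intervals of the other 5 all included 0. Cish was the least certain, at 0.49 (-0.52 to 1.51), followed by Socs2 at -0.21 (-0.89 to 0.47) and Socs7 at 0.46 (-0.07 to 0.99). Socs4 stood at 0.10 (-0.22 to 0.41) and Socs6 at -0.12 (-0.45 to 0.22). The T cell markers summed to 123, 128 and 61.0 CPM in KO 0 hr libraries, against 62.4, 69.5 and 62.5 CPM in WT 0 hr libraries. Their median log2 fold change was 0.46, and 1 of 9 passed by edgeR, beside 1.11% of all genes. The part of such cells in the 0 hr differences was not tested. Chd4 did not separate these groups, so the 0 hr differences follow the labels only.

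Whether the response over time depended on genotype was tested as an interaction. None of the 8 passed and 0 had an unadjusted p below 0.05 by edgeR, and DESeq2 and limma-voom called 0 as well. Of all genes 0.115% were called, 0.068% higher and 0.0471% lower. The log2 change over time in KO minus that in WT was -1.24 for Cish (SE 0.58, 95% interval -2.48 to 0.0038, edgeR adjusted p = 0.581) and -0.77 for Socs2 (SE 0.43, -1.70 to 0.17). It was 0.65 (SE 0.37, -0.15 to 1.44) for Socs3 and 0.57 (SE 0.29, -0.06 to 1.20) for Socs5, and lay between -0.13 and 0.20 for Socs1, Socs4, Socs6 and Socs7. With both KO 0 hr replicate 6 and KO 48 hr replicate 12 left out, Cish passed at -2.09 (SE 0.38, adjusted p = 0.0289) and Socs2 stood at -1.39 (SE 0.29, adjusted p = 0.0551). Socs1 changed sign there, from 0.04 to -0.51 (SE 0.18, 95% interval -0.90 to -0.12, edgeR adjusted p = 0.268), and did not pass. Of all genes 0.696% were then called (0.45% higher and 0.246% lower). Cish did not pass without replicate 6 alone or replicate 12 alone (edgeR adjusted p = 0.434 and 0.0958). These libraries held the lowest KO Cish level at 0 hr and the highest at 48 hr. They were singled out with the data known, so the fit without both is no independent support. These fits use the same libraries as the genotype and time comparisons above.

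Transcripts within a gene were read with care, because the estimate divides shared reads among them. Cish reads at 48 hr lay mainly on uc009rlc.2, which held 94.9% of the gene's count in KO and 94.2% in WT. Exons of Cish overlap Gm17040 (261 bases) and Gm17041 (479 bases) on the opposite strand. As strand is not marked by this kit, reads within these overlaps cannot be told apart between Cish and the antisense genes. For Socs1, uc007yed.1 held 68.0% of the count in each 48 hr group, 74.5% in resting KO cells and 68.0% in resting WT cells.

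Socs2 changed in make-up over time. Its main transcript uc007gwg.2 held 84.1% of the KO count at 48 hr, against 58.6% at 0 hr, and 84.7% of the WT count at 48 hr, against 59.5% at 0 hr. It rose by 3.70 (log2, SE 0.42) in KO and 4.49 (SE 0.43) in WT. The transcript uc007gwf.2 had 13, 14 and 28 reads in KO at 48 hr, against 39, 35 and 46 at 0 hr. In WT it had 28, 27 and 28 reads at 48 hr, against 39, 34 and 34 at 0 hr. It did not pass over time, with log2 fold changes of -0.46 (SE 0.42, edgeR adjusted p = 0.389) in KO and 0.19 (SE 0.42, 0.722) in WT.

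Socs6 was also mixed. Its largest transcript uc008fvf.1 held 44.6% of the KO count at 48 hr, against 67.3% at 0 hr, and 55.5% of the WT count at 48 hr, against 68.8% at 0 hr. It had log2 fold changes over time of 0.01 (SE 0.18, adjusted p = 0.956) in KO and 0.16 (SE 0.18, 0.486) in WT, so the rise of Socs6 did not show in its main transcript. The transcript uc008fvg.1 rose by 1.39 (SE 0.40, 0.0149) in KO and stood at 0.69 (SE 0.40, 0.164) in WT. A larger but less certain change was that of uc008fvh.1. It held 19.4% of the KO count at 48 hr, against 3.75% at 0 hr. In WT it held 14.5% at 48 hr, against 2.63% at 0 hr. Its log2 fold changes over time were 3.08 (SE 1.37, edgeR adjusted p = 0.0835) in KO and 2.98 (SE 1.37, 0.0896) in WT, without passing. Socs3 was almost wholly uc007moi.2, with 97.5% in KO 48 hr and 97.2% in WT 48 hr, and Socs7 has 1 transcript in the table.

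Across the 12 libraries the log2 CPM of Cish, Socs1 and Socs2 followed each other with a Pearson r of 0.976 to 0.983, and Socs5 opposed them with r of -0.977 to -0.989. The points fall into resting and stimulated libraries, and those of a group share their condition, so r is given as a description. The genes with the pattern most like each member over 12 libraries were Rad51b for Cish (r = 0.998), Ido1 for Socs1 (0.994), Ifngr2 for Socs2 (0.993), Tcam1 for Socs3 (0.990), Wdyhv1 for Socs4 (0.992), Cxxc5 for Socs5 (0.993), Smek1 for Socs6 (0.954) and Ttc19 for Socs7 (0.945). Other close genes were Wdr59 for Cish, Sept3 and Serhl for Socs1, Cops7a and Ccdc124 for Socs2, Oasl2 and Ptk2 for Socs3, Cdkn2a and Atic for Socs4, and Btg1 and Filip1l for Socs5. An r above 0.9 was shared by 4486 genes for Cish, 4150 for Socs4, 4046 for Socs1, 3829 for Socs2, 2962 for Socs5, 892 for Socs3, 238 for Socs6 and 23 for Socs7.

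The receptor side of the pathway is where SOCS proteins act. Of 29 cytokine and growth hormone receptor genes, 7 were higher and 14 lower at 48 hr in KO, and 8 were higher and 15 lower in WT. Of all genes, 33% were called higher in each genotype, and 37.7% were called lower in KO and 40.9% in WT. Il4ra, the IL-4 receptor chain, had 508, 380 and 861 CPM in KO 48 hr libraries, against 779, 733 and 876 CPM in WT 48 hr libraries. Resting cells had 121, 231 and 272 CPM in KO, against 163, 224 and 190 CPM in WT libraries. It rose by 1.49 (log2, SE 0.30) in KO and 2.05 (SE 0.30) in WT, and KO replicate 12 was within the WT range at 48 hr while replicates 10 and 11 were under it. The genotype difference at 48 hr was -0.45 (SE 0.29, edgeR adjusted p = 0.542). Its partner chains Il2rg (0.05 in KO, -0.16 in WT) and Il13ra1 (-0.18 and -0.62) did not pass over time. Il2ra rose most among the receptors, by 3.86 in KO and 4.24 in WT.

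Between genotypes, 0 of 29 receptors passed at 0 hr, with 4 at an unadjusted p below 0.05 by edgeR, and 1 at 48 hr, Ifngr2, the signalling chain of the interferon gamma receptor. Of all genes 1.11% were called at 0 hr and 2.02% at 48 hr. Ifngr2 had 202, 194 and 244 CPM in KO 48 hr libraries, against 307, 286 and 285 CPM in WT 48 hr libraries (log2 fold change -0.46, SE 0.10, edgeR adjusted p = 0.0348), with no overlap. Without KO 48 hr replicate 12 the 48 hr count became 4 lower (Il2ra, Il6ra, Il27ra and Ifngr2) and 1 higher (Il7r), beside 1.82% lower and 3.65% higher among all genes. Of 13 tested cytokine genes 1 passed at 48 hr. That was Il10, an inducer of STAT3, with 36.6, 37.8 and 49.8 CPM in KO and 11.2, 9.13 and 7.98 CPM in WT libraries (2.13, SE 0.34, adjusted p = 0.00496). Replicate 12, near WT in the SOCS genes, had the highest Il10. Over time 4 cytokine genes were higher and 4 lower in KO, and 6 were higher and 1 lower in WT. Among all genes 33% were called higher over time in each genotype, and 37.7% lower in KO and 40.9% in WT. The KO count became 4 higher and 2 lower without KO 48 hr replicate 12 (Il21 and Igf1) or without KO 0 hr replicate 6 (Il15 and Igf1).

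Of 4 Janus kinase genes, 0 passed over time in KO, with 0 at an unadjusted p below 0.05 by edgeR, and 1 in WT, where Jak1 fell by 0.41 (SE 0.15, adjusted p = 0.0216), beside -0.19 (adjusted p = 0.26) in KO. Jak2 stood at 0.23 in KO and 0.004 in WT, Jak3 at 0.43 and 0.11, and Tyk2 at -0.50 and -0.57 on the log2 scale, all without passing. None passed between genotypes at either time, where 2 of 4 had an unadjusted p below 0.05 at 0 hr and 0 at 48 hr. Of all genes 70.7% were called over time in KO and 73.9% in WT. Between genotypes the shares of all genes were 1.11% at 0 hr and 2.02% at 48 hr.

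Of 7 STAT genes, 5 rose over time in each genotype, beside 33% of all genes. Stat5a rose by 2.21 (SE 0.22) in KO and 2.08 (SE 0.22) in WT, Stat5b by 0.69 and 0.88, and Stat3 by 0.95 and 0.74. Stat6, the factor that IL-4 activates, did not pass, with -0.02 (SE 0.16) in KO and -0.03 (SE 0.16) in WT, at a mean of 196 CPM in KO 48 hr, 229 in WT 48 hr, 199 in KO 0 hr and 234 in WT 0 hr libraries. Between genotypes Stat4 was lower in KO at 0 hr (-0.59, SE 0.12, edgeR adjusted p = 0.0312) and at 48 hr (-2.42, SE 0.13, 1.52e-07).

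Of 9 measured partners that turn a SOCS box into a ubiquitin ligase, 8 were higher and 0 lower at 48 hr in KO, and 8 were higher and 1 lower (Arih2, with -0.40) in WT, beside 33% of all genes called higher in each genotype. The median log2 fold change of the list was 1.88 in KO and 2.25 in WT, beside -0.30 and -0.39 over all genes. Elongin C (listed as Tceb1) rose by 2.84 in KO and 3.04 in WT, elongin B (Tceb2) by 2.04 and 2.29, the RING protein Rnf7 by 2.08 and 2.40, and the scaffold Cul5 by 1.17 and 1.21. None of the 9 passed between genotypes at either time, with 1 at an unadjusted p below 0.05 at 0 hr and 0 at 48 hr by edgeR. Of all genes only 1.11% were called between genotypes at 0 hr and 2.02% at 48 hr.

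Targets that SOCS proteins restrain were counted from lists written down with earlier results of these data known. Of all genes 1.11% were called between genotypes at 0 hr (0.429% lower) and 2.02% at 48 hr (0.544% lower). Of 14 interferon gamma targets, 4 were lower in KO at 0 hr and 4 at 48 hr, and 0 were higher. Those at 0 hr included Iigp1 (-2.39, SE 0.23), Cxcl10 (-1.62) and Irf1 (-0.51), and those at 48 hr were Iigp1 (-2.79, SE 0.24), Gbp2 (adjusted p = 4.24e-05), Gbp3 (-0.99) and Irf1 (-0.61). Of 12 STAT5 targets 0 passed at 0 hr by edgeR (2 at an unadjusted p below 0.05) and 1 was lower at 48 hr, Ccnd3 (-0.53, SE 0.13). Of 14 tested STAT6 targets, a list that includes Cish and Socs1, 0 passed at 0 hr by edgeR (5 at an unadjusted p below 0.05) and 1 was lower at 48 hr, Batf, an AP-1 factor needed for class switching (-0.75, SE 0.12, adjusted p = 0.00664). Without KO 48 hr replicate 12 the 48 hr counts became 4 lower for the interferon list, 2 lower and 1 higher for STAT5 and 3 lower (Cish, Socs1 and Batf) for STAT6. Of all genes 3.65% were then called higher and 1.82% lower. Over time, 10 interferon targets were higher and 3 lower in KO, and 11 and 3 in WT. Of the STAT5 targets 7 were higher and 3 lower in KO, and 8 and 3 in WT, and of the STAT6 targets 7 were higher and 3 lower in KO, and 7 and 6 in WT. Beside these stand 33% of all genes called higher in each genotype, and 37.7% called lower in KO and 40.9% in WT.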

How the data were processed

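RNA was measured in 12 libraries of mouse splenic B cells. The authors deposited 1 estimated count per transcript and library, in whole numbers, so rounding changed nothing. Per the submitters' processing notes, bcl2fastq 2.20.0.422, Trimmomatic 0.36, Salmon 0.8.2, DESeq2 1.14.1 and the mm10 build were used. Per the labels' protocols, cDNA was amplified with a SMART-Seq v4 kit, which does not mark strand, and by PCR, so reads are not independent molecules.

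Counts were summed by gene symbol, after spaces were trimmed from 344 names. Genes were filtered with filterByExpr, libraries were scaled by TMM (factors 0.723 to 1.42) and CPM uses these scaled sizes. One model with a mean for each of the 4 groups was fitted in edgeR 4.0.16 (R 4.3.3; robust quasi-likelihood F test, 8 residual degrees of freedom, common dispersion 0.0534). A gene was called when its Benjamini-Hochberg p, taken across the 19125 genes, was below 0.05. Shares of all genes refer to such calls. No share is given for an unadjusted p below 0.05, so counts at that level are descriptive only. The script was tested on simulated data. Figures used matplotlib 3.10.9.

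The members, gene lists and tests were chosen with earlier results of these data known. All 8 members are named. Counts are given for the lists, with fixed pathway genes and the called members that changed most. Likeness is the Pearson r of log2 CPM. Transcripts with at least 10% of a gene's count in any group could be named. Some genes that these rules name are not reported here.

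Alternatives were DESeq2 1.42.0, limma-voom (limma 3.58.1), the likelihood ratio test, RLE and upper-quartile scaling, no filter, at least 1 CPM in 3 libraries, dispersion without the robust option, only the groups compared, transcripts as features, and leaving out each library. Leaving out KO replicates 6 and 12 together was added after the data were seen.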

Additional observations from a re-analysis of the deposited data

How the results depend on the processing

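Of 12 fits that each left out 1 library, the number of SOCS genes called ranged from 0 to 1 lower at 0 hr between genotypes, and from 0 to 1 higher and 0 to 4 lower at 48 hr. Over time it ranged from 5 to 6 higher and 1 to 2 lower in WT, and from 1 to 2 lower in KO. All genes called ranged from 79 to 426 at 0 hr, 136 to 1080 at 48 hr and 3 to 90 in the interaction.

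At 0 hr 1 SOCS gene, Socs3, was lower under DESeq2, the likelihood ratio test, RLE or upper-quartile scaling, the 1 CPM filter, the 0 hr libraries alone, or with both KO replicates 6 and 12 left out. At 48 hr DESeq2 and the likelihood ratio test each called 1 higher and 1 lower, no filter called 1 higher, and leaving out both libraries gave 1 higher and 4 lower and 1 lower in the interaction. Over time in WT only 1 SOCS gene was lower under DESeq2, limma-voom, RLE scaling or transcripts as features. All genes called at 0 hr were 650 (DESeq2), 547 (likelihood ratio), 75 (0 hr libraries alone), 83 (transcripts) and 674 (both left out), beside 212. At 48 hr they were 1060, 193 (limma-voom), 1000, 125 (transcripts) and 1351, beside 386. In the interaction they were 221, 184, 3 (transcripts) and 136, beside 22.

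Reversed signs concerned log2 fold changes near 0 in the main fit, except Socs6 over time. The reversed values themselves were not all near 0. Socs4 at 48 hr became -0.0014 (DESeq2), -0.0013 (RLE), and -0.054 to 0.13 over the left-out fits, and at 0 hr -0.015 with both left out and -0.014 to 0.20 over the left-out fits. Socs6 at 48 hr became -0.26 (transcripts) and -0.078 to 0.13 over the left-out fits, and over time under upper-quartile scaling -0.0046 in KO and -0.24 in WT. In the interaction Socs1 became -0.010 (DESeq2), -0.0094 (RLE), -0.13 (transcripts), -0.51 (both left out), and -0.32 to 0.21 over the 12 left-out fits. Socs4 became 0.010 (upper quartile), 0.14 (both left out), and -0.15 to 0.070 over the left-out fits, Socs6 -0.15 (transcripts), and Socs7 -0.33 to 0.11. Relative to the median gene, Socs6 over time was at 0.93 in KO and 0.82 in WT under both TMM and upper-quartile scaling. The cause of the other reversed signs was not tested.

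At 48 hr 73.1% of all calls were higher in KO, against 63.8% with RLE scaling and 55.2% with DESeq2. Over time 46.7% of calls were higher in KO and 44.6% in WT, against 28.8% and 27.6% with upper-quartile scaling. No paired analysis was possible because replicate numbers run from 1 to 12 and no groups share one. Cish at 0 hr (29 to 88 reads) and Socs5 at 48 hr (82 to 232 reads) are among the levels most limited by depth.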

Other observations

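Other proteins with a SOCS box use the same elongin and cullin machinery but lie outside the SOCS family. Of 15 tested, 5 were higher and 6 lower at 48 hr in KO, and 5 were higher and 7 lower in WT. These shares lie near those of all genes, of which 33% were called higher in each genotype and 37.7% lower in KO and 40.9% in WT. Spsb1 rose most, by 3.76 (log2, SE 0.39) in KO and 3.59 (SE 0.38) in WT. Of all genes 1.11% were called between genotypes at 0 hr and 2.02% at 48 hr. Of the 15 tested here, 0 passed at 0 hr by edgeR, with 4 at an unadjusted p below 0.05, and 1 at 48 hr. That was Wsb2, with 41.9, 42.8 and 37.7 CPM in KO 48 hr libraries, against 28.7, 26.0 and 26.6 CPM in WT 48 hr libraries (log2 fold change 0.59, SE 0.12, edgeR adjusted p = 0.0218). All 3 KO libraries were above all 3 WT libraries, replicate 12 included.

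Of 14 other inhibitors of JAK and STAT signalling, such as phosphatases and PIAS proteins, 4 were higher and 7 lower at 48 hr in each genotype, beside 33% higher and 37.7% (KO) or 40.9% (WT) lower among all genes. Usp18, which restrains the type I interferon receptor, rose by 2.72 (SE 0.14) in KO and 2.78 (SE 0.14) in WT, and Cblb, a ubiquitin ligase, fell by 2.11 (SE 0.15) and 2.24 (SE 0.15). None passed between genotypes at either time, with 1 at an unadjusted p below 0.05 by edgeR at 0 hr and 2 at 48 hr. Of 11 genes of the LPS receptor and its adaptors, 6 were higher and 3 lower at 48 hr in each genotype. The shares of all genes given above, 33% higher and 37.7% (KO) or 40.9% (WT) lower, apply here too. Between genotypes 1.11% of all genes were called at 0 hr and 2.02% at 48 hr. Of the 11 genes 0 passed between genotypes at 0 hr, with 2 at an unadjusted p below 0.05 by edgeR. At 48 hr Tirap was higher (0.82, SE 0.16, edgeR adjusted p = 0.0191) and Irak4 lower in KO (-1.53, SE 0.34, 0.0358). Without KO 48 hr replicate 12 Tirap was called and Irak4 was not.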
